A study of Mus musculus with 16 samples.

Results

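The comparison described here is between livers labelled mature and livers labelled immature among mice without Cre, the controls of a study of hepatic oestrogen receptor alpha. It takes 8 of the 16 libraries of the study, 4 from the group Mat.Con and 4 from Imm.Con, chosen by their group label, and covers all 13379 tested genes. Every mouse contributed 1 liver and 1 mRNA library. Control animals are floxed mice of the stated stage with no Cre, so both groups keep the receptor. The remaining 8 libraries are LERKO livers, floxed mice with Cre in which the receptor gene Esr1 is deleted in the liver, again 4 mature and 4 immature. The sources used here do not give age, sex, strain, diet or the promoter that drives Cre, nor do they say whether the stage refers to the time of knockout or of tissue collection. The numbers in the sample titles of mature and immature controls form separate ranges, so stage and any cohort behind those numbers cannot be told apart.

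The liver of a mouse passes through weaning and then puberty with large shifts in fuel use, growth signalling and sex-dependent enzymes. Hepatocytes burn fatty acids by beta-oxidation under the nuclear receptor PPAR-alpha when feed is scarce, and make fat and sterols under the SREBP factors when it is plentiful. Around them sit endothelial cells, retinoid-storing stellate cells that lay down matrix, and Kupffer cells, the resident macrophages. Whole liver RNA mixes all of these, and in such bulk samples fewer cells of a type and less RNA per cell cannot be told apart.

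Control libraries held 18689847 to 23213905 counts. Mature controls had a count for 16509 to 16809 genes and immature controls for 15853 to 16102, with no overlap, and the TMM scaling factors ran from 0.943 to 1.07. Alb, the plasma albumin gene and a defining hepatocyte product, stood at 106610, 83890, 93024 and 100620 CPM (counts per 1000000 of the TMM-scaled library) in mature and 107630, 102560, 90812 and 112430 CPM in immature livers. All 8 control libraries carried the X inactivation transcript Xist, at 479 to 722 CPM, and Ddx3y, Eif2s3y, Kdm5d and Uty of the Y chromosome were at 0. Esr1 had 75.04, 66.7, 110.1 and 76.9 CPM in mature controls and 65.8, 84.5, 89 and 55.3 CPM in immature controls. The groups overlapped, and the log2 fold change of mature over immature was 0.16 (SE 0.17, adjusted p = 0.827). In LERKO livers Esr1 was at 15.8, 19.1, 16.4 and 13.9 CPM in mature and 10.7, 12.6, 15.95 and 12.7 CPM in immature mice, below every control library. Of the LERKO libraries, immature 2 stood apart with 0.48 CPM of Xist. It enters the control comparison only through the spread that all groups share. Without it 1329 genes had an unadjusted p below 0.05, and with it 1317. Mature LERKO 4 held 169240 CPM of listed acute phase and IL-6 signalling genes, against 24010 to 36439 CPM in all other libraries. Its neutrophil markers summed to 109 CPM, against 2.19 to 7.01 CPM, and its TMM factor, 0.852, was the lowest. Without it 1731 genes had an unadjusted p below 0.05 between control stages.

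No gene passed edgeR's test between the stages. At an adjusted p of 0.05 this quasi-likelihood test called 0 of 13379 genes (0.0%), and the smallest adjusted p was 0.129. A raw, unadjusted p below 0.05 was found for 1317 genes (9.84%), of which 1011 (7.56%) stood higher and 306 (2.29%) lower in mature controls. That split of 76.8% higher became 94.0% when counts were scaled by library size alone, with 1414 genes higher and 90 lower. It was 69.0% with RLE scaling factors, 67.2% in DESeq2 and 64.6% with the 8 control libraries alone. DESeq2 called 74 genes (0.553%), 67 higher (0.501%) and 7 lower (0.0523%), of which 15 were members of the skeletal muscle list described next, and limma-voom called 0. Levels of the 4 mature and 4 immature libraries did not overlap for 1186 genes (8.86%), 818 higher (6.11%) and 368 lower (2.75%) in mature controls. The values that follow describe these 8 libraries, and a gene is called higher or lower only as a statement about them. For 78.8% of tested genes the 95% interval of the fold change lay within 2-fold in either direction.

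Skeletal muscle transcripts separated the mature controls from each other. The summed level of 36 muscle genes, contractile and calcium-handling proteins of muscle fibres, was 1304, 598, 43.3 and 130.1 CPM in mature controls 1 to 4 and 31.8 to 37.1 CPM in immature controls. Without the 4 list members that exceed 2 CPM in immature liver, the sums were 1139, 499, 3.75 and 76.2 CPM against 2.64 to 4.48 CPM. By that measure mature library 3 lay within the immature range, and libraries 1, 2 and 4 lay above it. Acta1, the skeletal actin, was at 167, 79.8, 0.134 and 16.3 CPM in mature controls and had no count in any immature control. Ryr1, the calcium release channel of muscle, was at 37.5, 11.2, 0.134 and 1.68 CPM in mature controls and at or near 0 (0, 0, 0.0502 and 0 CPM) in immature ones. Des, the intermediate filament gene desmin, which stellate cells also express, had 30.9, 23.6, 7.01 and 9.55 CPM in mature controls and 3.53, 5.32, 3.62 and 3.802 CPM in immature controls. H19, an imprinted non-coding RNA of fetal liver and of muscle, had 26.4, 18.3, 1.21 and 6.65 CPM in mature controls and 3.58, 1.86, 4.92 and 3.75 CPM in immature controls, with library 3 below every immature library. With the log muscle level as a covariate, 313 genes had an unadjusted p below 0.05 in place of 1317, 252 higher and 61 lower. Every mature control had a higher muscle sum than every immature control, so this covariate overlaps with the stage label. A fit with it cannot tell muscle RNA from stage. Of the LERKO libraries, immature 4 had the highest muscle sum, 304 CPM. Without mature libraries 1 and 2 there were 512 of 13676 genes at that p, 384 higher and 128 lower. Only mature libraries 3 and 4 remain in that fit, so a smaller group and less muscle RNA cannot be told apart in that count. Library 3, the mature control with the least muscle RNA, lay above every immature control for 23.3% of all tested genes and below every immature control for 18.3%.

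The 12 genes with the smallest p among those higher in mature controls and with no overlap between groups are described first. Tgfb1 (chr7:25687002-25705077, GRCm38), which encodes the cytokine TGF-beta 1, a driver of matrix production, had 13.1, 11.4, 14.2 and 11.8 CPM in mature controls and 7.52, 8.16, 5.88 and 5.73 CPM in immature controls. Each mature library lay above each immature one, library 3 highest. Its means were 12.6 ± 1.26 CPM in mature livers and 6.82 ± 1.21 CPM in immature ones (SD, n = 4 each), and the log2 fold change, 0.89, had an SE of 0.17 and an adjusted p of 0.235. Ppp1r9b, whose product spinophilin binds actin and protein phosphatase 1, had 14.5, 15.3, 17.96 and 12.3 CPM in mature controls and 10.01, 10.1, 8.29 and 9.704 CPM in immature controls. Library 3 was again the highest, and the fold change was 0.66 on the log2 scale (SE 0.13, adjusted p = 0.235). Csrp1, a LIM-domain protein of actin filaments, had 18.2, 15.2, 16.04 and 14.7 CPM in mature controls and 9.28, 9.71, 9.99 and 8.11 CPM in immature controls. Every mature library stood above every immature one, and the log2 fold change was 0.79 (SE 0.16).

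Pkm, the pyruvate kinase of most tissues other than the hepatocyte, had 25.03, 23.01, 16.97 and 16.7 CPM in mature controls and 10.4, 13.4, 10.1 and 11.7 CPM in immature controls. Cacna2d1, an auxiliary calcium channel subunit, had 3.86, 2.696, 0.715 and 1.09 CPM in mature controls and 0.622, 0.207, 0.251 and 0.227 CPM in immature controls. For both genes the mature libraries 1 and 2, with the most muscle RNA, were the highest, and library 3 still exceeded every immature library. Cacna2d1 had the largest standard error of the 12 (log2 fold change 2.64, SE 0.54). Fli1, an ETS transcription factor of endothelium and blood cells, had 4.47, 4.14, 4.69 and 3.37 CPM in mature controls and 2.49, 1.96, 1.36 and 1.87 CPM in immature controls. Prex1, an activator of the GTPase Rac in white blood cells, was at 8.43, 8.55, 10.2 and 8.41 CPM in mature livers and 4.67, 5.22, 5.37 and 3.92 CPM in immature ones. Tiam2, another Rac activator, had 8.43, 8.32, 8.93 and 6.44 CPM in mature controls and 1.504, 4.18, 4.17 and 1.53 CPM in immature controls, and immature libraries 1 and 4 were the lowest by far. The clathrin-associated Hip1 (log2 fold change 0.91), the actin crosslinker Flna (0.74), the pleckstrin-homology gene Plekho2 (1.05) and the actin regulator Abi3 (0.93) complete the 12. All 12 had the same adjusted p of 0.235 in edgeR. DESeq2 called all 12 and limma-voom 0, on the same counts by which the 12 were chosen. With quality weights limma-voom called Csrp1, Fli1, Hip1, Prex1 and Tgfb1 of them.

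**Figure D1:**
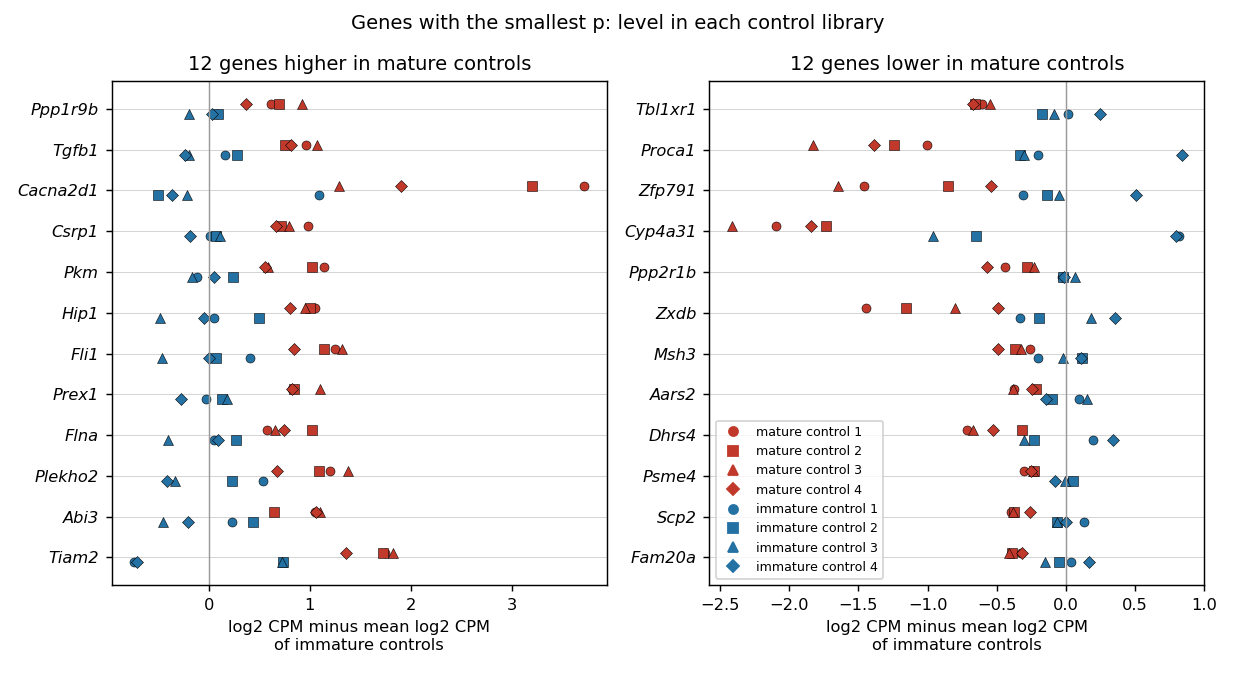
Level of the 12 higher and 12 lower genes in each of the 8 control libraries, as log2 CPM minus the mean log2 CPM of the 4 immature controls (x axis); each symbol is 1 library, red for mature and blue for immature. For every gene the red and blue symbols do not overlap, which was a condition of choice, and the spread among immature controls is widest for Cyp4a31 and Cacna2d1.

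Of the genes lower in mature controls, Tbl1xr1 (chr3:22076652-22216594, GRCm38) had the smallest p of all tested genes. It encodes a subunit of the NCoR and SMRT corepressor complexes, which silence targets of nuclear receptors. Its level was 29.7, 28.5, 30.9 and 28.4 CPM in mature controls and 45.6, 39.98, 42.4 and 53.6 CPM in immature controls. Mature controls lay close together and every one was below every immature control, and the log2 fold change was -0.63 (SE 0.10, adjusted p = 0.129). In LERKO livers the same gene was at 39.1, 39.9, 35.2 and 33.4 CPM in mature and 37.1, 37.9, 34.4 and 31.05 CPM in immature mice, where the groups overlapped and the log2 fold change was 0.07 (SE 0.10). The difference between the 2 fold changes was -0.70 (SE 0.14, adjusted p = 0.566). Other subunits stood closer to equality. Of 24 corepressor and coactivator genes, 9 had a positive fold change (53.1% of all genes) and all 24 had an interval within 2-fold (78.8%). Ncor1, the scaffold that Tbl1xr1 binds, had a log2 fold change of -0.22 (SE 0.13). The median of that list, -0.05, turned to 0.03 when counts were scaled by library size alone.

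Cyp4a31, a member of the fatty acid omega-hydroxylase family, had 4.52, 5.81, 3.62 and 5.38 CPM in mature controls and 34.01, 12.3, 9.89 and 33.5 CPM in immature controls. Immature libraries 1 and 4 stood well above libraries 2 and 3, and all 4 were above the mature controls. Scp2, the peroxisomal sterol carrier and thiolase, had 1506, 1528, 1518 and 1656 CPM in mature controls and 2165, 1894, 1898 and 1986 CPM in immature controls (log2 fold change -0.36, SE 0.11, adjusted p = 0.278). Psme4, a proteasome activator, had 70.5, 74.2, 73.7 and 73.2 CPM in mature controls and 89.3, 90.4, 86.5 and 82.7 CPM in immature controls. These last 2 genes differed little in size but had tight groups. The zinc finger gene Zfp791 (-1.08), Proca1 (-1.42) and the zinc finger gene Zxdb (-0.94) had the larger log2 fold changes among the rest. The phosphatase scaffold Ppp2r1b (-0.38), the mismatch repair gene Msh3 (-0.37), the mitochondrial alanyl-tRNA synthetase Aars2 (-0.31), the peroxisomal reductase Dhrs4 (-0.57) and the pseudokinase Fam20a (-0.37) had smaller ones. Adjusted p-values of the 12 in edgeR ran up to 0.284. DESeq2 called 7 of them and limma-voom 0, on the same counts by which they were chosen. With quality weights limma-voom called only Tbl1xr1 of them.

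Fatty acid oxidation genes stood lower in mature than in immature controls. Of 37 listed genes of beta-oxidation, ketogenesis and PPAR-alpha response, all tested, 36 had a negative fold change against 46.9% of all genes, and the median was -0.46 against 0.02 over all genes. At an unadjusted p below 0.05, 23 of the 37 were lower (2.29% of all genes) and 0 higher (7.56%). For 9 of the 37 the mature libraries all lay below the immature ones (2.75% of all genes), and mature library 3 lay below every immature control for 27 (18.3%). The summed level was 16295.0, 19347, 17019 and 19458 CPM in mature controls and 28892, 19994, 22418 and 32505 CPM in immature controls. Immature libraries 1 and 4 were far above the rest, while 2 and 3 were near the mature range.

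Members with the same pattern of libraries include Acadm and Vnn1. Acadm, the medium-chain acyl-CoA dehydrogenase, had 284, 332, 292 and 343 CPM in mature controls and 616, 318, 358 and 693 CPM in immature controls, so that mature libraries 2 and 4 exceeded immature library 2. Vnn1, a pantetheinase and PPAR-alpha target, had 40.8, 53.7, 44.8 and 56.8 CPM in mature controls and 243, 58.3, 56.1 and 234 CPM in immature controls. In both genes immature libraries 1 and 4 were the highest of the 8.

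Log2 fold changes were -0.67 for Acadm (SE 0.26, adjusted p = 0.413 in edgeR) and -1.59 for Vnn1 (SE 0.46). The long-chain enzymes Acadvl and Hadha had -0.42 (SE 0.13) and -0.51 (SE 0.17), and the peroxisomal Ehhadh -0.87 (SE 0.35). The omega-hydroxylases varied most. Cyp4a14 was at 127, 626, 246 and 507 CPM in mature livers and 1803, 562, 716 and 3123 CPM in immature ones, with mature library 2 above immature library 2, and Cyp4a10 at 127, 382, 229.9 and 323 and 1058, 407, 539 and 1869 CPM. Ppara itself, the receptor gene, had 182, 159.8, 209 and 175 CPM in mature controls and 204, 184, 175 and 153 CPM in immature controls (log2 fold change 0.02, SE 0.18), and Cpt1a, the gate to mitochondrial oxidation, had -0.04 (SE 0.19). The count of 23 members was 7 without immature library 1 (163 of 13567 over all genes) and 6 without immature library 4 (160 of 13568). The medians were -0.38 and -0.39. It was 12 without mature library 1 (171 of 13493) and 15 without mature library 3 (206 of 13552), with medians of -0.44 and -0.42. Without mature libraries 1 and 2 it was 3 (128 of 13676), with a median of -0.48. Without mature libraries 1, 2 and 4, which leaves library 3 as the only mature control, the median was -0.59. With the muscle covariate the count was 0 (61 of 13379), with a median of -0.35.

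Fabp1, the liver fatty acid binding protein, was the only one of 27 list members with a promoter in the RefSeq table to hold the direct repeat AGGNCANAGGNCA, a form of the element that PPAR-alpha binds. Its promoter, 250 bases before to 50 after the gene start at chr6:71199629-71199928 on the plus strand of GRCm38.p6, is shown because it is the member in which the element can be seen, with the repeat, found here on the opposite strand, in capitals.
Fabp1: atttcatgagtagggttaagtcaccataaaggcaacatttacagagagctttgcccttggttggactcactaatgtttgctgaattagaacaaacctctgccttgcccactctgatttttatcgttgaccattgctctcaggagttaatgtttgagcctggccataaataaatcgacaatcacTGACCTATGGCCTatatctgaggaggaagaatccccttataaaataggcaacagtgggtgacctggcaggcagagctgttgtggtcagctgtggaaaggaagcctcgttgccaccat
Both strands were searched, and 0.361% of the promoters of 10237 tested genes held the repeat. Fabp1 had 4044, 4535, 3504 and 4248 CPM in mature controls and 5481, 4534, 6053 and 6163 CPM in immature controls, overlapping only where mature library 2 was level with immature library 2 (log2 fold change -0.44, SE 0.23, adjusted p = 0.569).

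Genes of fat and sterol synthesis leaned the other way, with wide spread among immature controls. Of 22 lipogenic genes 20 had a positive fold change (53.1% of all genes), with a median of 0.43. But at an unadjusted p below 0.05 only 1, Scd2, was higher (7.56% of all genes) and 1, Insig2, lower (2.29%). Both counts are close to those shares. The summed level was 15232, 16861, 12308 and 17393 CPM in mature controls and 3867, 7874, 16878 and 4725 CPM in immature controls. Immature library 3 was among the mature values and the other 3 were below them. Scd1, the main hepatic stearoyl-CoA desaturase, had 7081, 8083, 5803 and 9496 CPM in mature controls and 507, 2262, 6633 and 1430 CPM in immature controls (log2 fold change 1.49, SE 0.76, adjusted p = 0.556). Fasn, the fatty acid synthase, had 947, 1470, 493 and 971 CPM in mature controls and 123, 393, 1353 and 145 CPM in immature controls, where immature library 3 exceeded mature libraries 1, 3 and 4. Scd2, a desaturase of the young liver, had 5.33, 5.39, 6.43 and 4.63 CPM in mature controls and 3.06, 3.77, 4.27 and 3.86 CPM in immature controls with no overlap. Insig2, which retains SREBP in the endoplasmic reticulum, had 42.5, 58.9, 59.05 and 53.5 CPM in mature controls and 56.1, 71.5, 96.1 and 74.8 CPM in immature controls.

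**Figure D2:**
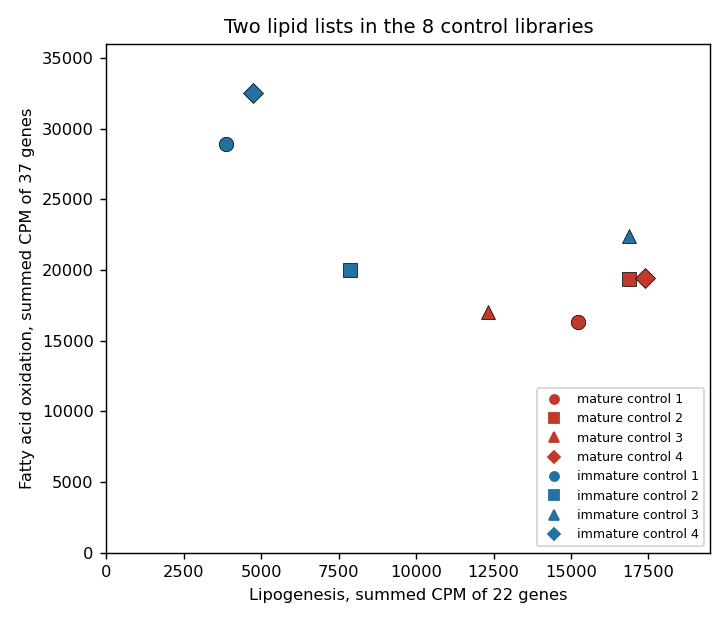
Summed CPM of 37 fatty acid oxidation genes (y axis) against summed CPM of 22 lipogenic genes (x axis) in the 8 control libraries; colours give the stage and shapes the library number. The 4 mature controls lie between 12308 and 17393 CPM for lipogenesis, immature controls 1 and 4 combine the lowest lipogenic with the highest oxidation sums, and immature control 3 lies beside the mature ones.

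All 25 cholesterol synthesis and uptake genes had a positive fold change (53.1% of all genes), with a median of 0.41, yet 0 reached an unadjusted p below 0.05 (7.56%) and 0 had groups without overlap (6.11%). The order of the immature libraries was that of lipogenesis: summed levels were 3681, 4139, 3054 and 3528 CPM in mature controls and 1948, 2583, 4769 and 2023 CPM in immature controls. Msmo1, a sterol demethylase, had 96.2, 75.95, 46.9 and 67.7 CPM in mature controls and 18.5, 34.3, 90.6 and 19.6 CPM in immature controls. Immature library 3 lay near the highest mature library, while the other 3 immature libraries lay below all mature ones. Without immature library 3 the list median was 0.87 and 17 members were higher at an unadjusted p below 0.05 (897 of 13565 over all genes). Without mature libraries 1, 2 and 4 the median was -0.13, which rests on library 3 alone, the mature control with the lowest sum (3054 CPM). The lipogenic median was 0.75, with 10 higher, in the first case and 0.05 in the second. With the muscle covariate, which overlaps with the stage label, both medians turned negative, -0.15 for each list.

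Sc5d, a sterol desaturase, had 664, 662, 502 and 493 CPM in mature controls and 296, 426, 762 and 255 CPM in immature controls, again with immature library 3 at the top. The CCAAT box, the letters CCAAT on either strand, was in 16 of the 17 promoters available for the cholesterol list (94.1%) and in 43.0% of all 10237. The promoter of Sc5d, at chr9:42264251-42264550 on the minus strand of GRCm38.p6, is shown as an example, with its box, here on the opposite strand, in capitals.
Sc5d: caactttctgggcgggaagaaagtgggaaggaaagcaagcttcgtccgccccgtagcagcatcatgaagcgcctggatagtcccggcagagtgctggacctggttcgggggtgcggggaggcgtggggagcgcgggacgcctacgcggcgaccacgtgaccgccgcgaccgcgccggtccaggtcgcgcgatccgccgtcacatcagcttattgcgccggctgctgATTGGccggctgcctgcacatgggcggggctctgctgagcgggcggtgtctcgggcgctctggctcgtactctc
This match describes the sequence, and no binding was measured.

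Stellate, endothelial and Kupffer cell markers stood higher in mature controls, while the lists of other cell types were mixed. Adipocyte markers had 0 of 6 tested genes positive and a median of -0.51, which was 2.52 without immature library 4. Cholangiocyte markers had 7 of 12 positive and a median of 0.03, which ran from -0.06 to 0.12 with 1 control library left out. Lymphocyte markers had 17 of 19 positive and a median of 0.31. Over all tested genes 53.1% were positive.

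All 31 tested genes of 33 listed for stellate cells, fibroblasts and matrix had a positive fold change (53.1% of all genes), with a median of 0.58. The list shares Des with the muscle list. For 23 of them every mature library lay above every immature one (6.11% of all genes), and 10 were higher at an unadjusted p below 0.05 (7.56%). Summed levels were 1169, 954, 934 and 998 CPM in mature livers and 554, 736, 667 and 717 CPM in immature ones, with no overlap, and mature library 3, with little muscle RNA, exceeded every immature control for 29 of the 31 (23.3%).

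Among the matrix genes, the proteoglycan Dcn had 138, 114, 108 and 119.8 CPM in mature controls and 65.1, 88.6, 82.02 and 98.9 CPM in immature controls (log2 fold change 0.52, SE 0.28, adjusted p = 0.592). The collagen Col14a1 had 66.4, 50.8, 54.8 and 58.6 CPM in mature controls and 29.2, 37.2, 34.9 and 32.1 CPM in immature controls. Bgn, a second small proteoglycan, had 150.2, 115, 133 and 149 CPM in mature controls and 76, 108, 92.8 and 101 CPM in immature controls. Mature libraries exceeded immature ones in all 3 genes. Lrat, which esterifies retinol for storage in stellate cells, had 28.99, 22.9, 18.4 and 18.1 CPM in mature controls and 10.99, 14.9, 12.1 and 10.4 CPM in immature controls (log2 fold change 0.87, SE 0.31). Rgs5, a pericyte gene, had 57.6, 44.8, 39.7 and 30.8 CPM in mature controls and 17.5, 29.3, 20.04 and 19.9 CPM in immature controls. The matrix gene Ecm1 had 215, 172, 176 and 204 CPM in mature controls and 116.5, 145, 152 and 148 CPM in immature controls. All of these groups were apart, although the standard errors of Dcn, Bgn and Ecm1 were 0.27 to 0.31 on the log2 scale. The count of 10 became 27 without mature LERKO library 4, which entered only through the shared spread and held 265 CPM of this list, below every other library. It was 5 without immature library 1 and 1 without mature libraries 1 and 2. Over all genes these 3 settings gave 1284 of 13541, 749 of 13567 and 384 of 13676 genes higher. The medians in these 3 settings were 0.56, 0.50 and 0.54.

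Endothelial markers had a median of 0.72, and all 23 had a positive fold change (53.1% of all genes). At an unadjusted p below 0.05, 14 of the 23 were higher (7.56% of all genes), for 6 the groups did not overlap (6.11%), and mature library 3 exceeded every immature control for 21 (23.3%). The sums were 808, 756, 809 and 561 CPM in mature livers and 376, 569, 369.8 and 430.2 CPM in immature ones, so that mature library 4 and immature library 2 met. Cdh5, the cadherin of endothelial junctions, had 25.5, 22.9, 27.3 and 20.7 CPM in mature controls and 13.5, 18.95, 10.04 and 13.5 CPM in immature controls (log2 fold change 0.78, SE 0.22, adjusted p = 0.26). Stab2, a scavenger receptor of sinusoids, had 48.6, 43, 54.4 and 37.7 CPM in mature controls and 31.5, 32.5, 23.2 and 25.7 CPM in immature controls. Mature libraries were above immature ones in both genes. Kdr, the main VEGF receptor, had 47.9, 45.4, 43.6 and 24.7 CPM in mature controls and 18.04, 30.7, 19.3 and 20.3 CPM in immature controls. The water channel Aqp1 had 73.9, 72.1, 80.6 and 47.5 CPM in mature controls and 34.3, 51.03, 30.1 and 39.8 CPM in immature controls. In these 2 genes mature library 4 lay below immature library 2. The mannose receptor Mrc1 had a log2 fold change of 0.82 (SE 0.23). The count of 14 ranged from 5 without immature library 3 to 20 without mature LERKO library 4. It was 4 without mature libraries 1 and 2, with a median of 0.62. Over all genes these settings gave 897 of 13565, 1284 of 13541 and 384 of 13676 genes higher.

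Kupffer and myeloid markers followed, with 23 of 24 tested genes of 25 listed positive (53.1% of all genes), a median of 0.48, and 16 higher at an unadjusted p below 0.05 (7.56%). Summed levels were 666, 569, 759 and 711 CPM in mature livers and 636, 619.5, 354.6 and 436.2 CPM in immature ones. Immature libraries 3 and 4 were low and libraries 1 and 2 lay among the mature values. Vsig4, a complement receptor of Kupffer cells, had 23.7, 20.4, 27.2 and 25.4 CPM in mature controls and 18.1, 18.2, 9.84 and 13.8 CPM in immature controls (log2 fold change 0.69, SE 0.20, adjusted p = 0.26). Cybb, the phagocyte oxidase, had 13.4, 11.2, 15.7 and 15.1 CPM in mature controls and 10.8, 10.48, 4.77 and 6.64 CPM in immature controls. In both genes all mature libraries exceeded all immature ones. The lectin Clec4f had 83.8, 71.8, 94.5 and 90.7 CPM in mature controls and 78.2, 78.6, 39.1 and 51.4 CPM in immature controls. Cd5l, a macrophage-secreted protein, had 85.9, 74.2, 106 and 92.3 CPM in mature controls and 84.9, 74.7, 35.2 and 47.04 CPM in immature controls, and for these 2 genes the groups overlapped. The count of 16 was 7 without immature library 3 (897 of 13565 over all genes) and 13 without mature libraries 1 and 2 (384 of 13676). With the muscle covariate the medians were 0.29 for stellate and matrix genes, 0.44 for endothelial markers and 0.55 for Kupffer markers. In that setting 0, 2 and 7 members were higher at an unadjusted p below 0.05 (252 of 13379 over all genes).

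Hepatocyte genes stood on the other side of equality: 13 of 17 had a negative fold change (46.9% of all genes). The median was -0.14, and all 17 intervals lay within 2-fold (78.8%). Apob, the protein of secreted lipoproteins, had 3895, 3711, 3923 and 4135 CPM in mature controls and 5160, 4741, 4900 and 5073 CPM in immature controls (log2 fold change -0.34, SE 0.12, adjusted p = 0.383). Every mature library lay below every immature one. Hnf4a, a master regulator of hepatocytes, had -0.29 (SE 0.17).

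**Figure D3:**
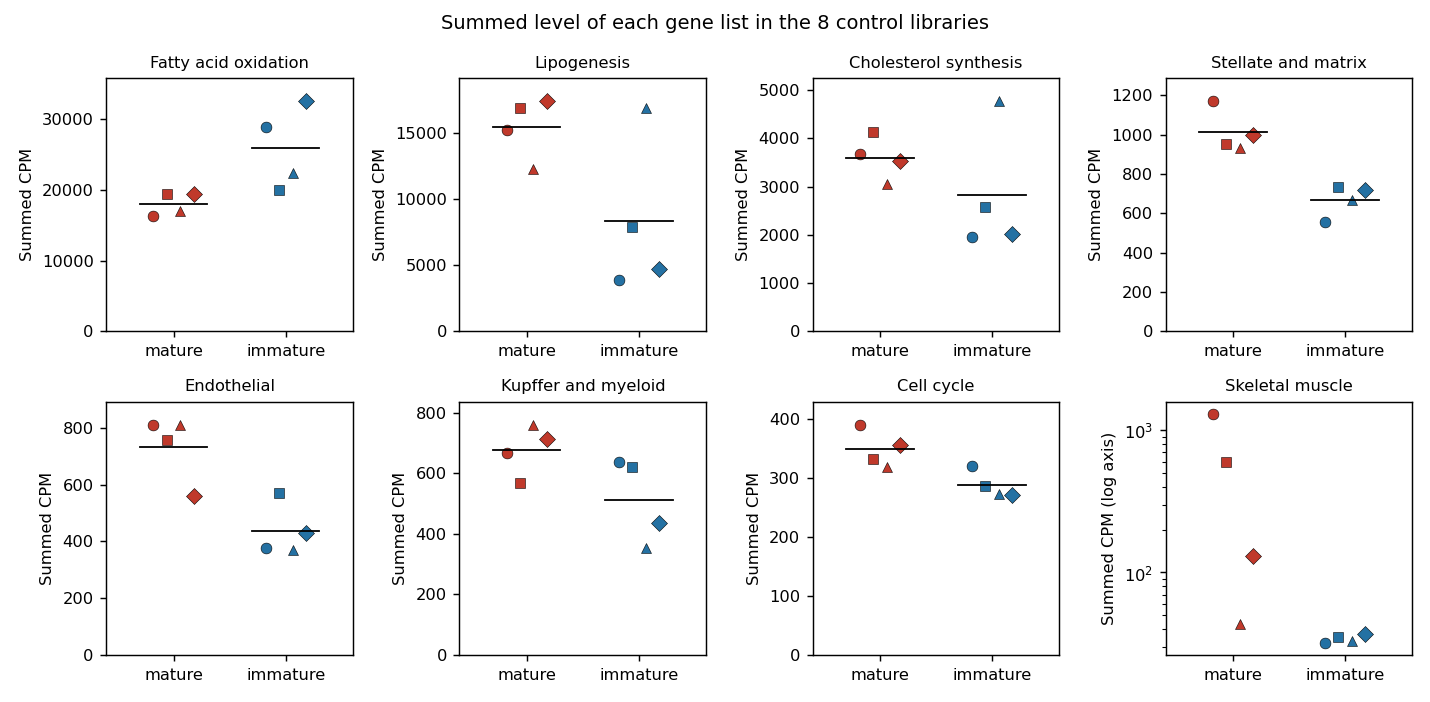
Summed CPM of 8 gene lists in each control library; symbols are single libraries (shape gives the library number, red mature, blue immature), lines are group means, and the muscle panel has a log axis and no mean. Stellate and matrix sums and oxidation sums do not overlap between the stages, and the muscle sum of mature control 3, 43.3 CPM, lies close to the immature controls.

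The TGF-beta pathway list, which shares Eng with the endothelial list, had 37 tested genes of 39. A positive fold change was found for 25 (53.1% of all genes), 8 were higher (7.56%) and 0 lower (2.29%) at an unadjusted p below 0.05, and for 10 the groups did not overlap, all higher in mature controls (6.11% of all genes). Of the receptors, Tgfbr2, the ligand-binding receptor, had 19.7, 13.6, 15.5 and 13.6 CPM in mature controls and 11.1, 11.5, 9.94 and 11.7 CPM in immature controls (log2 fold change 0.50, SE 0.21). The endothelial co-receptor Eng had 69.3, 63.9, 66.9 and 60.99 CPM in mature controls and 34.99, 52.9, 39.4 and 40.9 CPM in immature controls. Acvrl1, the type I receptor of endothelium, had 2.74, 2.79, 3.48 and 2.73 CPM in mature controls and 1.81, 2.48, 1.31 and 2.04 CPM in immature controls. In all 3 receptor genes the mature libraries exceeded the immature ones. The count of 8 was 3 without immature library 3, 4 without mature library 3 and 5 without mature library 1, mature library 2 or immature library 1. Over all genes these settings gave 693 to 897 genes higher. It was 2 without mature libraries 1 and 2 (384 of 13676 over all genes) or with the muscle covariate (252 of 13379).

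Cell cycle genes also leaned higher in mature controls. Of 33 tested genes of 38, 31 had a positive fold change (53.1% of all genes) with a median of 0.55, 12 were higher at an unadjusted p below 0.05 (7.56%) and for 8 the groups did not overlap, all higher in mature controls (6.11%). Foxm1, a transcription factor of mitotic genes, had 1.32, 0.697, 0.625 and 1.01 CPM in mature controls and 0.259, 0.103, 0.151 and 0.454 CPM in immature controls (log2 fold change 1.91, SE 0.41, adjusted p = 0.235). Ccna2, cyclin A2, had 2.39, 0.744, 1.34 and 1.01 CPM in mature controls and 0.363, 0.516, 0.201 and 0.227 CPM in immature controls. Mki67, the Ki-67 antigen, had 7.16, 3.39, 3.04 and 2.65 CPM in mature controls and 2.38, 2.43, 0.703 and 1.48 CPM in immature controls. These levels are low, and mature library 1, which also held the most muscle RNA, was the highest for each. Top2a, a topoisomerase of dividing cells, had 4.16, 1.02, 1.34 and 2.36 CPM in mature controls and 0.726, 0.878, 0.904 and 0.681 CPM in immature controls. Ccnd1, cyclin D1, had 138, 152, 139 and 173 CPM in mature controls and 157, 110.1, 114 and 109.9 CPM in immature controls, where immature library 1 lay among the mature values. Without mature library 1 the median was 0.33 with 6 members higher, and without mature libraries 1 and 2 it was 0.32 with 6 higher. With the muscle covariate it was 0.14 with 3 higher. Over all genes these settings gave 693 of 13493, 384 of 13676 and 252 of 13379 genes higher.

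Mcm3, a subunit of the replication helicase, had 6.702, 3.72, 4.29 and 4.795 CPM in mature controls and 3.78, 3.62, 2.66 and 2.95 CPM in immature controls (log2 fold change 0.58, SE 0.28). Of the 27 promoters available for the cell cycle list, 7 (25.9%) held TTTCCCGC or TTTGGCGC, forms of the E2F site, against 3.29% of all 10237. The promoter of Mcm3, at chr1:20820263-20820562 on the minus strand of GRCm38.p6, is shown because it holds both forms, the first on the opposite strand, in capitals.
Mcm3: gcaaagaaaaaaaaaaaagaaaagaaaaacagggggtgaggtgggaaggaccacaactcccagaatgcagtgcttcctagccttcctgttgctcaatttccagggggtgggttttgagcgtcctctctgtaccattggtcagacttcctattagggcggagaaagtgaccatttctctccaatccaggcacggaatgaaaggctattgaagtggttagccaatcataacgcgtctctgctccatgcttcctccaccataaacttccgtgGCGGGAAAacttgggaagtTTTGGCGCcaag
Motifs shown here were chosen after the counts of 7 motifs in 8 lists were seen, and a match is no evidence of a bound site.

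Metabolic zonation genes gave small differences. Of 20 periportal and urea cycle genes 15 had a positive fold change (53.1% of all genes), with a median of 0.23, and 2, Ass1 and Gls2, were higher at an unadjusted p below 0.05, a share near the 7.56% of all genes. That count was 0 without mature library 1 or 3, without immature library 1 or 4 and with the muscle covariate. Ass1, the argininosuccinate synthase, had 4475, 3331, 4574 and 4163 CPM in mature controls and 1173, 2979, 3614 and 1939 CPM in immature controls. Gls2, the liver glutaminase, had 481, 391, 495 and 384 CPM in mature controls and 184, 350.9, 382 and 249 CPM in immature controls. In both, immature libraries 1 and 4 were the lowest of the 8, the same libraries that were highest for fatty acid oxidation. Cps1, the first urea cycle enzyme, had a log2 fold change of 0.36 (SE 0.22). Cyp2e1, a pericentral cytochrome P450, had 8254, 8091, 10356 and 10013 CPM in mature controls and 15739, 11934, 9824 and 16588 CPM in immature controls (log2 fold change -0.56, SE 0.26, adjusted p = 0.502), while the 18 pericentral genes together had a median of -0.04, which was 0.04 with library size alone.

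Of 74 tested subunits of the respiratory chain, 59 had a negative fold change (46.9% of all genes). At an unadjusted p below 0.05 there were 0 (9.84%), and every interval lay within 2-fold (78.8%). The median was -0.07, or 0.01 with library size alone. In LERKO livers all 74 were negative (49.6% of all genes), with a median of -0.19. Genes known to respond to oestrogen in liver had a median of -0.16 over 26 tested genes. A negative fold change was found for 19 (46.9% of all genes), and 0 had an unadjusted p below 0.05 (9.84%). Of these, angiotensinogen (Agt) had 890.1, 856, 968 and 792 CPM in mature controls and 1086, 943, 898 and 1233 CPM in immature controls (log2 fold change -0.25, SE 0.15), and Lcat, the plasma cholesterol acyltransferase, had -0.30 (SE 0.15). Igf1, the hepatic growth hormone target, had 658, 565, 684 and 707 CPM in mature controls and 693, 765, 699.9 and 629.8 CPM in immature controls (log2 fold change -0.09, SE 0.13, 95% interval -0.36 to 0.18). Female-biased genes had a median of -0.11 over 28 tested genes and male-biased ones 0.02 over 18, the latter -0.01 with RLE factors. Cyp2a4, a female-biased steroid hydroxylase, had 1387, 1028, 1340 and 995 CPM in mature controls and 762, 1133, 863 and 1162 CPM in immature controls. Sult2a1, a female-biased sulfotransferase, had 0.152, 6.09, 0.402 and 0.547 CPM in mature controls and 3.16, 0.0516, 123 and 26.3 CPM in immature controls, so that the widest spread was among immature controls.

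The LERKO livers, which share no library with the controls, gave another view of the same label. Between mature and immature LERKO livers 0 genes passed in edgeR, with a smallest adjusted p of 0.951, and 660 (4.93%) had an unadjusted p below 0.05. Groups did not overlap for 203 genes (1.52%). Of the 1011 genes higher in mature controls at an unadjusted p below 0.05, 50.2% had a positive fold change in LERKO livers, against 50.4% of all genes. Of the 306 lower genes 61.4% were negative there, against 49.6%. Among the 24 genes described first, 10 of the 12 higher ones were positive and 7 of the 12 lower ones negative in LERKO livers. For 16 of the 24 the control and LERKO fold changes differed at an unadjusted p below 0.05 in edgeR (6.35% of all genes). These genes were chosen for their control values. The difference between the control and the LERKO fold change was called for 0 genes (smallest adjusted p 0.566), with 850 (6.35%) at an unadjusted p below 0.05.

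By list, fatty acid oxidation had a median of -0.46 in controls and -0.22 in LERKO livers, and Kupffer markers 0.48 and 0.31. Stellate and matrix genes had 0.58 and -0.24, cell cycle genes 0.55 and -0.24, lipogenesis 0.43 and -0.52, and endothelial markers 0.72 and -0.05. At an unadjusted p below 0.05 the fold changes of controls exceeded those of LERKO livers for 14 of 31 stellate and matrix genes and 17 of 33 cell cycle genes (4.34% of all genes). The same held for 5 of 22 lipogenic, 4 of 23 endothelial and 1 of 24 Kupffer genes. For the 37 oxidation genes, 0 differed between genotypes at that p in either direction (6.35% of all genes). Single LERKO libraries weigh on these medians: mature LERKO 4 held 265 CPM of the stellate and matrix list against 729 to 869 CPM in mature LERKO 1 to 3, and immature LERKO 4 held 1100 CPM of it, 224 CPM of the muscle genes and 44158 CPM of the lipogenic list. Without mature LERKO 4 the LERKO medians were 0.01 for stellate and matrix genes, 0.22 for endothelial markers, -0.38 for cell cycle genes, -0.35 for lipogenesis, -0.09 for oxidation and 0.15 for Kupffer markers. Without immature LERKO 4 they were -0.03, 0.16, -0.20, 0.03, -0.30 and 0.37 in the same order. Mature LERKO 4 was also the library with the high acute phase and neutrophil sums.

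**Figure D4:**
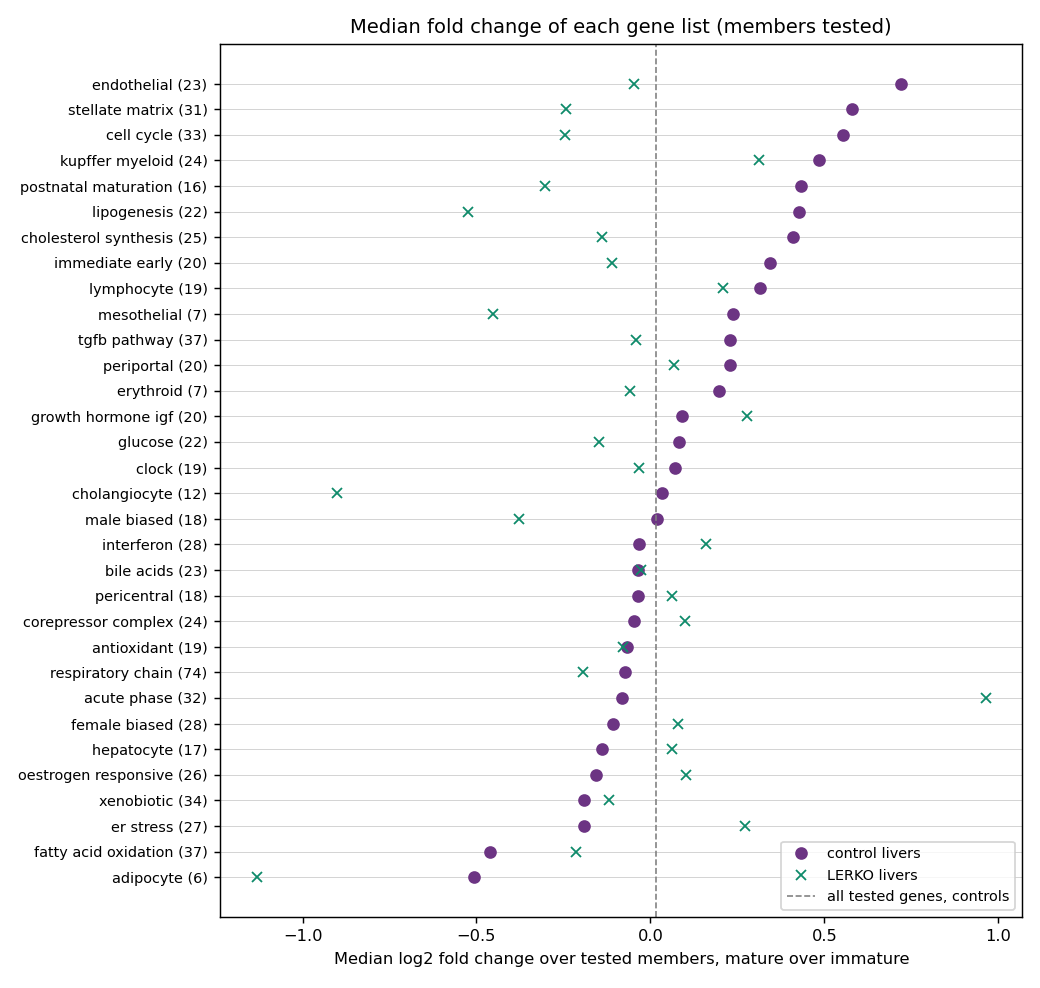
Median log2 fold change of mature over immature (x axis) for each of 32 gene lists with at least 5 tested members, muscle left out (number tested in brackets), in control livers (circles) and LERKO livers (crosses), with the median over all tested genes in controls as a dashed line. In controls, endothelial markers lie at 0.72 and fatty acid oxidation at -0.46, and the stellate, cell cycle and lipogenesis lists have circle and cross on opposite sides of 0.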

How the data were processed

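Liver mRNA of 16 mice was sequenced as stranded paired-end libraries, per the labels' protocols. The submitters' processing notes list mm10, STAR, R 4.05 and limma, without roles; the sources used here do not give the counting program, annotation or strand setting. The authors deposited 1 count per gene and library for 35502 genes. In 5 columns the deposited values are treated as estimated counts, since 10 values of 2 genes are fractional, and were rounded. All 13 mitochondrially encoded protein genes are at 0. Gm20425 holds 94.9 to 95.3% of the counts of Trf, which it overlaps, so overlapping genes (Foxm1 with Tex52, Scp2 with Podn), antisense pairs (Eng with Fpgs, Abi3 with Gngt2) and close paralogs (Cyp4a10, Cyp4a14 and Cyp4a31, Scd1 and Scd2, Cyp2a4) carry uncertain counts.

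edgeR 4.0.16 (R 4.3.3) filterByExpr (minimum count 10, minimum total 15) kept 13379 genes, and 15496 were at 0 everywhere. Counts were TMM-scaled and tested by glmQLFit and glmQLFTest in 1 model of all 16 libraries, 1 coefficient per group, with 12 residual degrees of freedom and Benjamini-Hochberg adjustment over all tested genes. The biological coefficient of variation was 21.2%. Adjusted p-values and standard errors (SE) of log2 fold changes are from that fit unless another tool is named, and p-values measure the spread between these individual mice. Alternatives were RLE factors, library size alone, no filter, 1 CPM in 4 libraries, DESeq2 1.42.0, limma-voom (limma 3.58.1) with and without quality weights, a robust fit, the 8 control libraries alone, an adjusted p of 0.1, a muscle covariate and each library left out.

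Members and all 36 gene lists were chosen with earlier results of these data known. The named genes are Esr1, the 12 of smallest p in each direction without overlap of the groups and with a mean log2 CPM of 0 or more, and the 2 highest-level and 2 smallest-p members of each list; some genes that this rule names are not reported here. Atp11a, Il1b, Acta1, Ryr1, Ppara, Cpt1a, Fasn, Acadm, Ehhadh, Hadha, Kdr, Stab2, Lrat, Col14a1, Clec4f, Mki67, Top2a, Mcm3, Tgfbr2, Eng, Hnf4a and Xist were added after values were seen, where that rule does not name them. Of 35502 gene identifiers 35465 matched GENCODE vM21; promoters are RefSeq's on GRCm38.p6. Scripts were tested on simulated data.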

Additional observations from a re-analysis of the deposited data

Results flagged for a closer look

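In a group of 4 libraries, the highest or lowest was set apart when its gap to the next, as a share of the range, exceeded Dixon's 95% limit. Of 232 groups examined, over the named genes and the lists, 12 had such a library, and chance gives about 1 group in 20. Among mature controls, Prex1 in library 3 (10.2 CPM, others 8.41 to 8.55), Acvrl1 in library 3 (3.48, others 2.73 to 2.79), Scp2 in library 4 (1657, others 1506 to 1529), Mki67 in library 1 (7.16, others 2.65 to 3.39) and Sult2a1 in library 2 (6.09, others 0.152 to 0.547) were high, and Abi3 in library 2 (4.83, others 6.40 to 6.61) was low. Among immature controls, library 1 was high for Cacna2d1 (0.622 CPM, others 0.207 to 0.251) and Ccnd1 (157 CPM, others 109.9 to 114), library 2 for Des (5.32, others 3.53 to 3.80), and library 3 for Ppp2r1b (12.1, others 11.4 to 11.5). Immature library 4 was high for Proca1 (2.55, others 1.14 to 1.24) and for the summed adipocyte markers (102 CPM, others 12.2 to 17.3). The cause of these single values was not tested.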

How the results depend on the processing

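The count of 0 genes at an adjusted p of 0.05 between control stages stayed 0 with RLE factors, library size alone, no filter, 1 CPM in 4 libraries, a robust fit, limma-voom, a muscle covariate, an adjusted p of 0.1 and without mature controls 1 and 2 (a setting chosen after seeing the data). It was 74 in DESeq2, 8 in limma-voom with quality weights, 6 with the 8 control libraries alone and 1 (Il1b) without mature controls 1, 2 and 4, also chosen after seeing the data, where the lone mature library is assumed to vary like the other groups. With 1 library left out it ran from 0 to 1, the 1 being Atp11a without mature LERKO 4. The count of 1317 at an unadjusted p below 0.05 became 2107 with the control libraries alone, 2315 with quality weights, 313 with a muscle covariate, 512 without mature controls 1 and 2 and 365 without mature controls 1, 2 and 4, and with 1 library left out ran from 864 (without mature control 1) to 1731 (without mature LERKO 4). For LERKO livers DESeq2 called 6 and 1 library left out gave 0 to 1; for the difference between genotypes DESeq2 called 22 and 1 library left out gave 0 to 0. Of 80 named genes, 24 passed the threshold under some alternative and 5 changed sign: Esr1 (-0.016 without mature control 3 to 0.25 without immature control 3), Sc5d (-0.11), Cyp2a4 (-0.000464), H19 (-1.02) and Fasn (-0.51) with the muscle covariate, and H19 (-1.56) and Fasn (-0.0498) without mature controls 1, 2 and 4. Median log2 fold changes of all genes were 0.02 with TMM, -0.01 with RLE and 0.10 with library size alone. Of 33 list medians 14 kept their sign in all 29 alternatives. The muscle covariate overlaps with the stage label in controls, so a change of sign under it does not separate muscle RNA from stage. The causes were not tested. A planned setting without mature controls above 10 CPM of muscle genes was not run, because all 4 exceed it. No paired analysis was possible because the labels give no replicate number shared between groups. At these depths the 95% intervals of 21.2% of genes reach beyond 2-fold.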

Other observations

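Markers of fetal and early postnatal liver had mostly positive fold changes in mature over immature controls, and their median changed sign with muscle level as a covariate. Of 26 listed genes 16 were tested, 14 had a positive fold change (53.1% of all genes), the median was 0.43, and 2 were higher at an unadjusted p below 0.05 (7.56%). The median was -0.03 with the muscle covariate and 0.22 without mature libraries 1 and 2. In either setting 0 were higher (252 of 13379 and 384 of 13676 over all genes). Their sums were 191, 162, 135 and 151 CPM in mature controls and 88.5, 112, 110.4 and 127 CPM in immature controls, and the list holds Dcn, H19 and Scd2, described above. Immediate early genes had 18 of 20 positive (53.1% of all genes) and a median of 0.34. Nr4a1, an orphan nuclear receptor gene induced within an hour of a stimulus, stood at 72.4, 29.1, 119 and 8.08 CPM in mature controls and 18.9, 6.71, 4.77 and 8.34 CPM in immature controls, with mature library 4 among the immature values (log2 fold change 2.56, SE 0.90, adjusted p = 0.368 in edgeR).

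The unfolded protein and stress response list stood slightly lower in mature controls, with 22 of 27 tested genes negative (46.9% of all genes). Its median was -0.19, and 0 had an unadjusted p below 0.05 (9.84%). Atp11a, a phospholipid flippase gene, was at 12.6, 10.2, 10.7 and 10.3 CPM in mature and 5.55, 5.94, 5.63 and 4.31 CPM in immature controls, with no overlap (log2 fold change 1.03, SE 0.56). Il1b, the cytokine interleukin 1 beta, was at 3.35, 0.837, 6.92 and 0.631 CPM in mature and 0.467, 0.517, 0.502 and 0.511 CPM in immature controls (log2 fold change 2.54, SE 0.61, adjusted p = 0.235 in edgeR).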
